A study of Mus musculus with 2 samples.

Results

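The regions described here are stretches of open chromatin deep inside genes: 1 kb tiles of the mouse autosomes that lie within the body of a protein-coding gene, more than 10 kb from the start or end of any protein-coding gene, and that collected at least 50 fragments, by fragment midpoint, from at least 30 barcodes the authors called as cells. The rule found 13316 such tiles among 57920 open autosomal tiles, or 23.0%. Coordinates are on GRCm38, and the tiles were chosen by fragment and barcode numbers pooled over both libraries, so that their levels are a description and not a finding. The data are single-cell ATAC-seq, in which a transposase cuts DNA that is not wrapped tightly in nucleosomes, so that a fragment marks an accessible place in 1 nucleus. Liver cells other than hepatocytes were collected from 1 Spta sph/sph mouse, homozygous for a spectrin alpha mutation that makes red cells fragile, and from its Spta wt/wt littermate. Both mice were male, 8 to 10 weeks old and without treatment, and macrophages were enriched with beads that bind F4/80. With 1 library per genotype, no difference between genotypes can be tested, and no label pairs a barcode suffix with a genotype, so values are given for library 1 and library 2 (the suffixes) without a genotype.

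Open chromatin inside introns is mostly made of enhancers, which bind transcription factors and act on a promoter that can lie far away, in the same gene or in another one, and of starts of shorter transcripts. Promoters of widely used genes tend to lie in CpG islands and to be open in most cell types, whereas enhancers tend to be open in few. In the liver, Kupffer cells are the resident macrophages that take up aged red cells and debris, endothelial cells line the sinusoids and also scavenge, and stellate cells store retinoids and make matrix.

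Some of these tiles hold the start of an annotated alternative transcript, and for those a sequence can be shown. Of the 13316 tiles, 550 (4.13%) held an annotated start, 418 of them a start of a coding gene, against 0.403% of all 692169 tiles at such positions, open or not. Among the 100 tiles with most fragments, 37 held a start. The 250 bases before the start are printed for 6 (RefSeq, GRCm38.p6, 5′ to 3′ on the strand of the gene, CG pairs in capitals). Hdac4 and Slc39a10 differed less than 4-fold between Kupffer-like, endothelial-like and stellate or fibroblast-like cells. Vmp1 and Cytip were higher in Kupffer-like than in endothelial-like cells, Erg higher in endothelial-like cells and Lhx2 higher in stellate or fibroblast-like cells. All 6 were picked after their values were seen.
Hdac4, chr1:92180342-92180591 (minus strand): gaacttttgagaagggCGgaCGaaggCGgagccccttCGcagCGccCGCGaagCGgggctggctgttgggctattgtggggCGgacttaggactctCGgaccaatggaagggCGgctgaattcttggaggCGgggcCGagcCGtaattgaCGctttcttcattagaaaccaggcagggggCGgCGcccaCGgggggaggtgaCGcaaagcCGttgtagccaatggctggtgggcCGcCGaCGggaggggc
Slc39a10, chr1:46853619-46853868 (minus strand): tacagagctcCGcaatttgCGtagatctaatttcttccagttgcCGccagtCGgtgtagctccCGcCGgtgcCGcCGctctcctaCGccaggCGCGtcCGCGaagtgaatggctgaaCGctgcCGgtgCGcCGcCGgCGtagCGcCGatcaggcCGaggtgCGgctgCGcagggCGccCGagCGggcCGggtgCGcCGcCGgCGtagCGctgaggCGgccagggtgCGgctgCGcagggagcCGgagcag
Vmp1, chr11:86671182-86671431 (minus strand): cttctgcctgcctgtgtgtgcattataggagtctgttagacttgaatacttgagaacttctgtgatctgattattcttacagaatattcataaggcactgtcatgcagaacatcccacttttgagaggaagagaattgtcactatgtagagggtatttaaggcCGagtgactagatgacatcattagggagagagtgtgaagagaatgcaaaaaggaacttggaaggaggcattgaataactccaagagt
Cytip, chr2:58160123-58160372 (minus strand): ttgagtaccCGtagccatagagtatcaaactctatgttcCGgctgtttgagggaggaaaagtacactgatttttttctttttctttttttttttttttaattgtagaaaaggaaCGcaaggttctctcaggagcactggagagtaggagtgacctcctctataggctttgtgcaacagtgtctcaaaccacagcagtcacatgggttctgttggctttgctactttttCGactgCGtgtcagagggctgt
Erg, chr16:95459349-95459598 (minus strand): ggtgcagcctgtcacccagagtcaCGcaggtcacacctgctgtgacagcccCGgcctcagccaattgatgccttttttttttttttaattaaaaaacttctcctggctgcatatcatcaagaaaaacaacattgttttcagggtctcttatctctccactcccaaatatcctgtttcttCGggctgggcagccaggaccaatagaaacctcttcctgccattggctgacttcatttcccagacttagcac
Lhx2, chr2:38351058-38351307 (plus strand): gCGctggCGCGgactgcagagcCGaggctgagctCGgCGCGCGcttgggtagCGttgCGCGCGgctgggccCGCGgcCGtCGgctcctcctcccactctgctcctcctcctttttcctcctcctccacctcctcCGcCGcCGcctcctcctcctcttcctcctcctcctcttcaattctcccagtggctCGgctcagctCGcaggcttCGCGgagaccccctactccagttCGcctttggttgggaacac

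The Hdac4 and Slc39a10 stretches held 23 and 37 CG pairs, those of Vmp1, Cytip and Erg 1, 5 and 3, and that of Lhx2 24. The Vmp1 tile was at 18.9 and 10.5 CPM (fragments scaled to the total of the class, library 1 and library 2) in Kupffer-like cells and at 1.34 and 0 in endothelial-like cells. The Cytip tile, in a gene for a regulator of leukocyte adhesion, was at 23.0 and 22.6 CPM against 1.34 and 2.75, and at 23.1 and 19.5 in monocyte or dendritic-like cells. The Erg tile was at 0.720 and 0.389 CPM in Kupffer-like cells and at 31.4 and 16.5 in endothelial-like cells. The tile of Lhx2, a homeobox factor of stellate cells, was at 29.1 and 29.2 CPM in stellate or fibroblast-like cells and at no more than 2.67 in the other 2 classes. Over all 638 annotated starts in the tiles, taken as windows of 300 bases, the median number of CG pairs was 18 for the 429 starts whose tile differed less than 4-fold between Kupffer-like and endothelial-like cells in library 1, 5 for the 98 in tiles higher in Kupffer-like cells and 8 for the 68 in tiles higher in endothelial-like cells, against 7 over 31396 autosomal promoters. The letters GGAAGT, a core that ETS factors such as PU.1 and ERG bind, were found on either strand in 40.8% of the 98 windows, 26.5% of the 68 and 25.9% of the 429, against 23.9% of all promoters. TGANTCA, bound by AP-1, was found in 13.3%, 13.2% and 6.53%, against 7.84%. TGTGGTT, bound by RUNX factors, was found in 9.18%, 7.35% and 2.80%, against 5.32%. These 3 of 7 motifs searched were more frequent in the windows of Kupffer-like tiles than in all promoters. The other 4 were not: AGATAA, bound by GATA factors, was found in 7.14% of the 98 windows, against 11.2% of all promoters. ACAATGG, bound by SOX factors, was found in 3.06%, against 3.61%. TCACGTG, bound by MiT factors, was found in 2.04%, against 3.73%. CTAATTA, bound by LHX factors, was found in 1.02%, against 1.99%. In 2430 starts at such positions whose tile was not open, GGAAGT was found in 19.3%, TGANTCA in 9.34% and TGTGGTT in 7.08%. The windows overlap where starts lie close together, these motifs were searched separately, and a match is only a match of letters.

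The 2 libraries differed in kind as well as in size. Library 1 held 11401694 fragments and 637 called cells, library 2 held 21656110 and 575, with medians of 13220 and 13186 fragments per cell, and no cell barcode was called in both. Of cells that passed the filters (609 and 562), 327 and 184 were Kupffer-like, 120 and 120 endothelial-like, 68 and 25 stellate or fibroblast-like, 51 and 83 monocyte or dendritic-like, 25 and 1 hepatocyte-like, and 18 and 149 had no name because their leading lists, erythroid and cholangiocyte, lay too close. Classes were named from marker genes after clustering on bins that held none of the tiles, so names rest on rebuilt clusters. Kupffer-like cells came from clusters 1 and 5 in library 1 (199 and 128 cells) and mainly from cluster 3 in library 2 (170 of 184 cells). Cluster 3 had a Kupffer marker score of 0.53, against 1.32 and 1.04 in clusters 1 and 5, with all 14 markers detected, and its leading genes (Akr1c20, Cyp2b23) were not macrophage genes. Endothelial-like cells came from clusters 2 and 8, with 67 and 53 cells in library 1 and 113 and 7 in library 2. The cells without a name held 42.3% of the fragments of library 2 and 3.09% of those of library 1. Library 2 carried far more pile-ups, that is, runs of at least 10 fragments of 1 cell in 20 kb at 10 times the expected number: 12.0% of its fragments against 0.648%. In the tiles the shares were 1.75% and 0.0853%, and with pile-ups masked cluster 3 was led by Marco, a macrophage scavenger receptor.

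Tiles inside genes made up a moderate share of open chromatin but were sparse on the genome. Of the 692169 eligible tiles 1.92% were open, against 16.6% of 108696 tiles within 1 kb of a gene end and 0.919% of 1232463 tiles between genes. The open tiles held 7.27% of cell fragments, with a median of 85 fragments from 72 barcodes and a range of 50 to 1411. At the threshold, 315 tiles had exactly 50 fragments, and 342 tiles just outside had 49. The share of open tiles went down from 2.93% at 10 to 20 kb from a gene end to 0.299% beyond 200 kb, and from 3.27% in hosts of 20 to 50 kb to 0.470% in hosts over 500 kb. Most stood alone: there were 10847 runs of neighbouring tiles, 8892 of them a single tile. The longest run, 7 tiles in Sfi1, held 1716 fragments.

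Open tiles were spread over many hosts. Of 9035 coding genes long enough to hold an eligible tile, 3591 (39.7%) held at least 1 open tile, with a median of 2, and 308 held at least 10. Frmd4b, which encodes a scaffold protein of cell contacts, held the most, 41 tiles, of which 24 could be compared in both libraries and 14 were at least 4-fold higher in Kupffer-like cells in both. Gse1 followed with 36, Sash1 and Zfhx3 with 33 each, and Frmd4a, Itga9 and Itsn1 with 31 each. In Gse1 1 of 21 compared tiles was higher in Kupffer-like cells in both libraries, and in Zfhx3 0 of 10, and in endothelial-like cells 2 and 1. With respect to the strand of the gene, 52.3% of the tiles lay in the 5′ part of the host, against 50.0% of eligible tiles, taking the midpoint as the border.

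These tiles differed between cell types far more often than gene ends did. The level of a class in a tile is given in CPM, its fragments there scaled to the total of its fragments. Ratios are log2 with 0.5 added to both counts, and a tile was called when the classes differed at least 4-fold with at least 20 fragments of the pair in the library. In library 1, 5079 of 12096 measured tiles (42.0%) were at least 4-fold higher in Kupffer-like than in endothelial-like cells, against 30.6% of all open tiles and 10.2% at gene ends. The share was 34.3% in library 2 (2000 of 5832), against 21.2% of all open tiles and 5.86% at gene ends. The reverse, at least 4-fold higher in endothelial-like cells, held for 1535 tiles (12.7%, against 8.58% of all open tiles) in library 1 and 1072 tiles (18.4%, against 11.3%) in library 2. Open tiles between genes were similar, with 46.1% and 34.6% higher in Kupffer-like cells. Among the tiles that held an annotated start the shares were 18.4% and 12.7%. Without the 954 tiles that had a start in them or in a neighbouring tile, a comparison added after the values were seen, they were 43.7% and 36.1%.

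**Figure D1:**
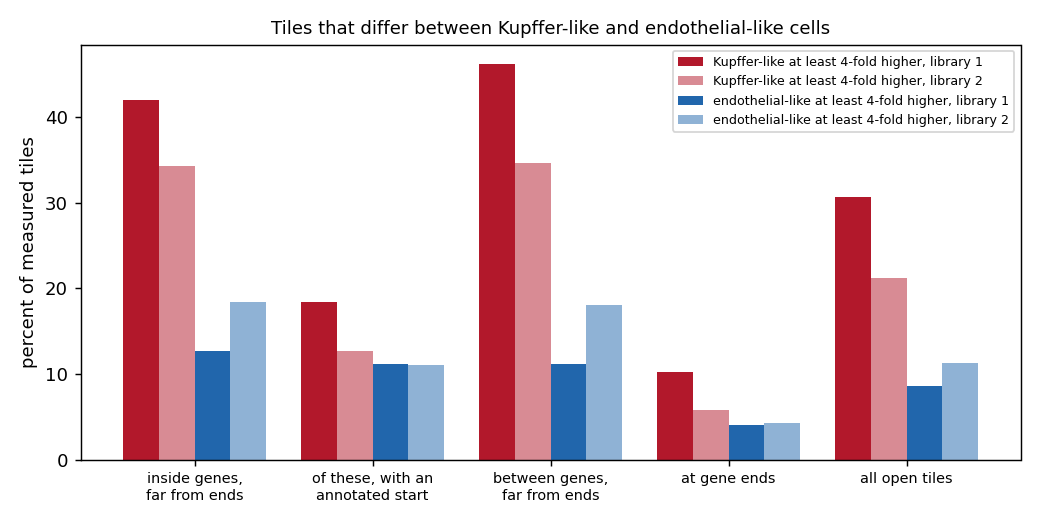
Bars give the percent of measured tiles at least 4-fold higher in Kupffer-like (red) or endothelial-like (blue) cells, in library 1 (dark) and library 2 (pale), for each kind of tile; there is no replicate and so no error bar. Tiles inside and between genes reach 34.3% to 46.1% for Kupffer-like cells, and tiles at gene ends stay at or under 10.2%.

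The threshold on fragments favours the commonest cells, and Kupffer-like cells gave 60.0% of fragments in library 1 and 21.7% in library 2, or 68.5% and 31.5% of fragments in the tiles. Within ranges of fragment number the contrast with gene ends had the same direction, but it was smaller at lower levels. At 50 to 74 fragments, 39.4% and 18.3% of the tiles were higher in Kupffer-like cells, against 20.9% and 9.27% at gene ends. At 100 to 199 fragments the shares were 46.0% and 38.6%, against 14.6% and 11.6%. With at least 200 fragments, a range without an upper bound, they were 39.9% and 38.5%, against 3.08% and 3.06%. In those tiles endothelial-like calls were fewer, 3.35% and 4.07%. Among tiles of 50 to 74 fragments measured in library 2 the order was the other way. There 18.3% were higher in Kupffer-like and 56.1% higher in endothelial-like cells. Only 558 of the 5303 tiles in that range had the minimum of fragments of the pair in library 2, against 4227 in library 1. Tiles with so few pooled fragments reach that minimum in library 2 more easily when library 1, mostly Kupffer-like, adds few. The minimum can thus favour endothelial-like tiles, so this order cannot be taken for that of all tiles in the range. In library 2 the counts rest on how its cells were grouped. When cells needed 3000 fragments in peaks, 157 of its 184 Kupffer-like cells joined a cluster of 251 library 2 cells that took the erythroid name, and 6 cells were named Kupffer-like. Then 54 tiles (2.79%) were called higher in Kupffer-like and 819 (42.3%) higher in endothelial-like cells, so every library 2 value of Kupffer-like cells is tied to the grouping used.

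The libraries gave much the same picture of which tiles belong to which class. Of 5523 tiles measured in both, 1626 in 954 hosts were at least 4-fold higher in Kupffer-like cells in both (29.4%, against 17.8% of all open tiles), 785 in 528 hosts were higher in endothelial-like cells in both (14.2%, against 8.19%), and 2 were called in opposite directions. The Spearman rank correlation between the 2 libraries' ratios was 0.88 over these tiles and 0.58 over 12404 tiles at gene ends, and Pearson's r was 0.88 and 0.81. Over 4852 open tiles between genes the values were much as inside genes, 0.88 (Spearman) and 0.89 (Pearson). Tiles of a library share its cells and depth, so these correlations describe the 2 libraries only.

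**Figure D2:**
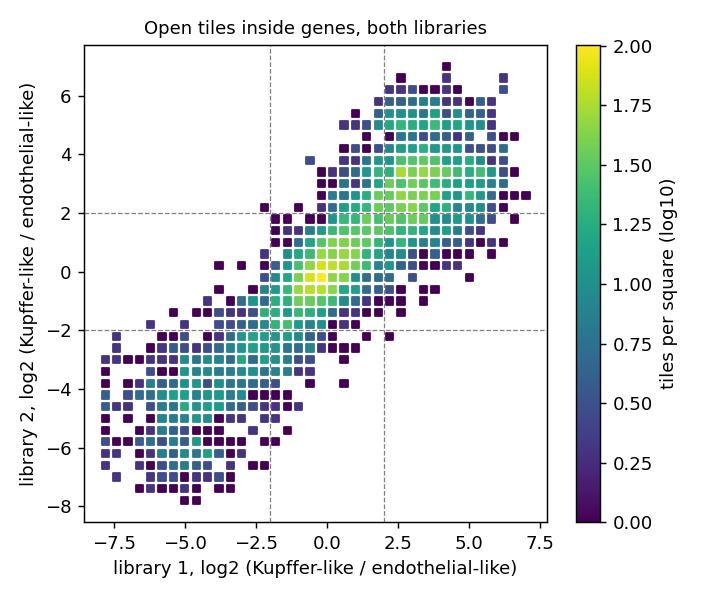
Each square gives the number of tiles (colour, log10 scale) by log2 ratio of Kupffer-like over endothelial-like cells in library 1 (x axis) and library 2 (y axis), for the 5523 tiles measured in both; dashed lines mark 4-fold. The tiles lie along the diagonal, with 1626 in the upper right corner, 785 in the lower left and 2 in the other corners.

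A stricter rule asked that 1 class exceed both others at least 4-fold in both libraries. Tiles entered with at least 20 fragments of that class in each library, or 10 for stellate or fibroblast-like cells. They thus entered through the class that was compared, so the shares are a description and cannot be compared between classes. For Kupffer-like cells 667 of 3246 tiles passed (20.5%, against 11.5% of all open tiles), for endothelial-like cells 297 of 1299 (22.9%, against 7.94%) and for stellate or fibroblast-like cells 113 of 578 (19.6%, against 5.69%). Open tiles between genes had somewhat higher shares, 23.8%, 24.7% and 22.8%, so such leads were not particular to tiles inside genes. At gene ends the shares were 2.28%, 1.04% and 1.39%.

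The tile with the largest Kupffer-like lead lay in Fyb, which encodes an adaptor that links immune receptors to the cytoskeleton (chr15:6562001-6563000). It held 152 fragments of Kupffer-like cells in library 1 and 61 in library 2, or 27.4 and 23.7 CPM, against 1 and 1 of endothelial-like and 0 and 0 of stellate or fibroblast-like cells. Monocyte or dendritic-like cells, which the rule did not use, were at 27.5 and 21.6 CPM there, so the tile was open in both kinds of myeloid cell. Pik3r5, a regulatory subunit of a phosphoinositide 3-kinase of white cells, followed (chr11:68458001-68459000) with 92 and 49 fragments of Kupffer-like cells and 0 and 1 of endothelial-like cells. The others were in Ctnnbl1, Dnah5, Fabp12, Megf11, Chn2, Arhgef4, Col15a1 and Mtus1. Without cells marked as doublets the smaller of the 2 libraries' log2 leads came to 1.78 in Pik3r5, 1.93 in Dnah5 and 1.49 in Fabp12, and with 3000 fragments in peaks to 0.95 in Mtus1, all under 4-fold. Several of these hosts, such as the cilium motor gene Dnah5 and the collagen gene Col15a1, are not known as macrophage genes. The tile in Arhgef4 was at 13.3 and 18.3 CPM in Kupffer-like cells and at 1.45 and 1.62 CPM in monocyte or dendritic-like cells.

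Many Kupffer-like leads were shared with monocyte or dendritic-like cells, at about the same share as over all open tiles. Of the 667 tiles, 316 (47.4%) were within 2-fold of those cells in both libraries, against 49.4% of all open tiles with such a lead, and 95 (14.2%, against 13.6%) in 83 hosts were at least 4-fold above them in both. Examples among the 95, picked after their values were seen, included a tile in Dpp10 (chr1:124073001-124074000) with 155 and 41 fragments of Kupffer-like cells and 0 and 0 of monocyte or dendritic-like cells. A tile in Scp2, a carrier of sterols and other lipids (chr4:108083001-108084000), held 103 and 42 against 0 and 0. One in Slc11a2, which encodes an iron transporter of endosomes (chr15:100405001-100406000), held 61 and 26 against 0 and 0. One in Abca1, the cholesterol exporter (chr4:53080001-53081000), held 77 and 33 against 0 and 1. In Lepr, the leptin receptor, 2 neighbouring tiles from chr4:101741001 held 125 and 141 fragments of Kupffer-like cells in library 1 and 1 each of monocyte or dendritic-like cells.

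The endothelial-like leads were in hosts of several kinds. The tile in Kdr, the main VEGF receptor (chr5:75962001-75963000), held 75 and 38 fragments of endothelial-like cells, 50.1 and 20.9 CPM, against 7 and 0 of Kupffer-like cells and 0 and 0 of stellate or fibroblast-like cells. The leading tile lay in Zfp462, a zinc finger gene (chr4:55042001-55043000), with 43 and 54 fragments, against 2 and 1 of Kupffer-like cells. Aff3 (chr1:38478001-38479000) had 76 and 50 against 5 and 0. Bcr (chr10:75107001-75108000) had 23 and 39 against 0 and 0. The other hosts were Mb21d2, Egfem1, Tnks2, Arhgap31, Pik3c2b and Gm17359. All 10 tiles were at or near the level of 0 fragments in stellate or fibroblast-like cells, with at most 1 in a library.

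Stellate or fibroblast-like leads rest on 68 and 25 cells and so on fewer fragments. The leading tile, in D430019H16Rik (chr12:105468001-105469000), held 32 and 26 of their fragments, 40.4 and 44.7 CPM, and 0 in Kupffer-like and endothelial-like cells of either library. Egfr, the epidermal growth factor receptor (chr11:16800001-16801000), had 29 and 19, again against 0 in the other 2 classes. Reln, which encodes a secreted protein used as a marker of hepatic stellate cells, was among the 10 (chr5:22255001-22256000) with 39 and 14 against 2 and 0 of Kupffer-like and 1 and 0 of endothelial-like cells. The others lay in Myo5b, Ntm, Wwox, Dcdc2a, Arvcf, Lamb3 and Ago2.

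**Figure D3:**
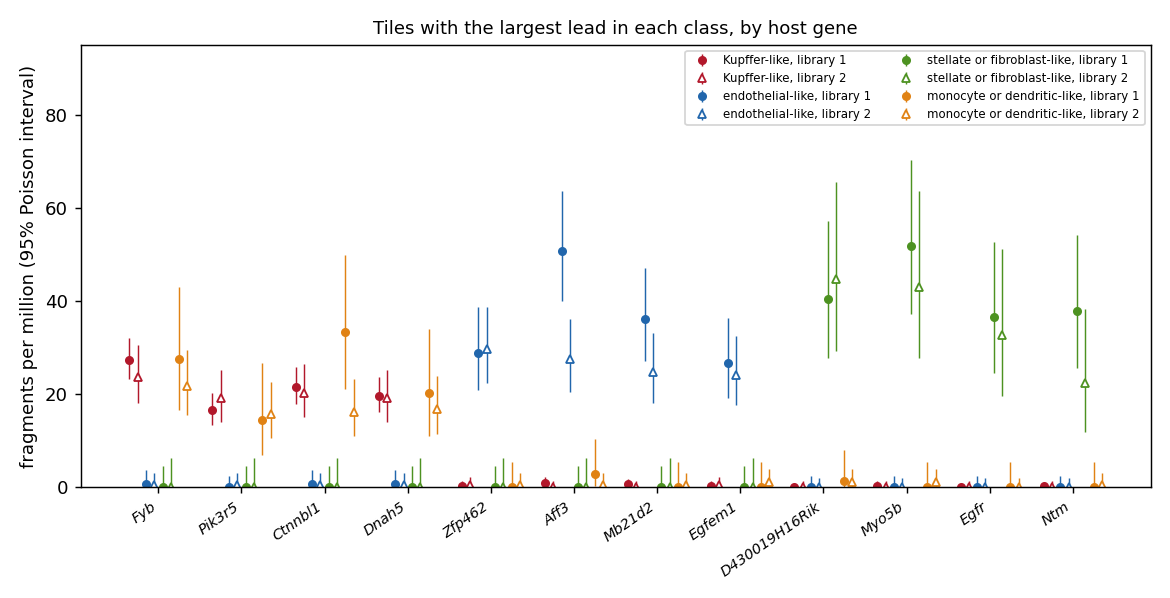
Level of 12 tiles, 4 with the largest lead in each class, in CPM (y axis) by class (colour) and library (filled, library 1; open, library 2), with 95% Poisson intervals for counting error. The tiles were chosen for these leads; monocyte or dendritic-like cells, not used in the choice, are level with Kupffer-like cells at Fyb, Pik3r5, Ctnnbl1 and Dnah5.

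The 5 tiles with most fragments differed less than 4-fold between these 3 classes. That in Hdac4, a class II histone deacetylase, held 1411 fragments from 695 barcodes (chr1:92180001-92181000), with 73.5 and 85.6 CPM in Kupffer-like, 70.1 and 79.1 in endothelial-like and 88.4 and 75.7 in stellate or fibroblast-like cells. It covers the alternative start printed above. Iffo2, Stard13 and Slc39a10, a zinc importer, also held annotated starts, with 1233, 1176 and 1164 fragments. The remaining tile, in Cdk8 (chr5:146261001-146262000), held 1179 fragments from only 374 barcodes, 3.15 per barcode against a median of 1.19, and no annotated start. Its level was 20.5 and 54.5 CPM in Kupffer-like and 14.7 and 57.1 in endothelial-like cells. It and a tile shared by Cmss1 and Filip1l were the 2 tiles with at least 2.5 fragments per barcode.

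Some hosts carried tiles of both classes. Of 1140 hosts with at least 2 tiles measured in both libraries, 129 held tiles of either kind, called in both libraries, and 27 held at least 2 of each. Hecw2, a ubiquitin ligase gene of 388 kb, had the most of both, with 6 tiles higher in Kupffer-like and 5 higher in endothelial-like cells among 13 compared. They did not alternate. The 15 tiles at 305 to 377 kb from the Hecw2 start were all higher in Kupffer-like cells in both libraries, and the 9 tiles at 178 to 286 kb were all higher in endothelial-like cells in both. At chr1:53838001-53839000 Kupffer-like cells had 86 and 29 fragments and endothelial-like cells 2 and 0. At chr1:54006001-54007000 the numbers were 3 and 1 against 40 and 45. Tmcc3 (4 of each), Frmd4a (5 and 3), Sash1, Bach2, Sh3bp5 and Hivep2 (3 and 4 each) followed.

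Stab2, a hyaluronan and scavenger receptor used as a marker of sinusoidal endothelium, held 14 open tiles, and 10 of them leaned to Kupffer-like cells, by any amount, in both libraries. At chr10:86885001-86886000, 123 kb from the start, Kupffer-like cells had 147 and 67 fragments, 26.5 and 26.1 CPM, and endothelial-like cells 2 and 3. Monocyte or dendritic-like cells had 0 and 2. The tile nearest to the start, at 15.5 kb (chr10:86992001-86993000), went the other way, with 8 and 2 fragments of Kupffer-like cells and 51 and 58 of endothelial-like cells, 34.1 and 31.8 CPM.

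**Figure D4:**
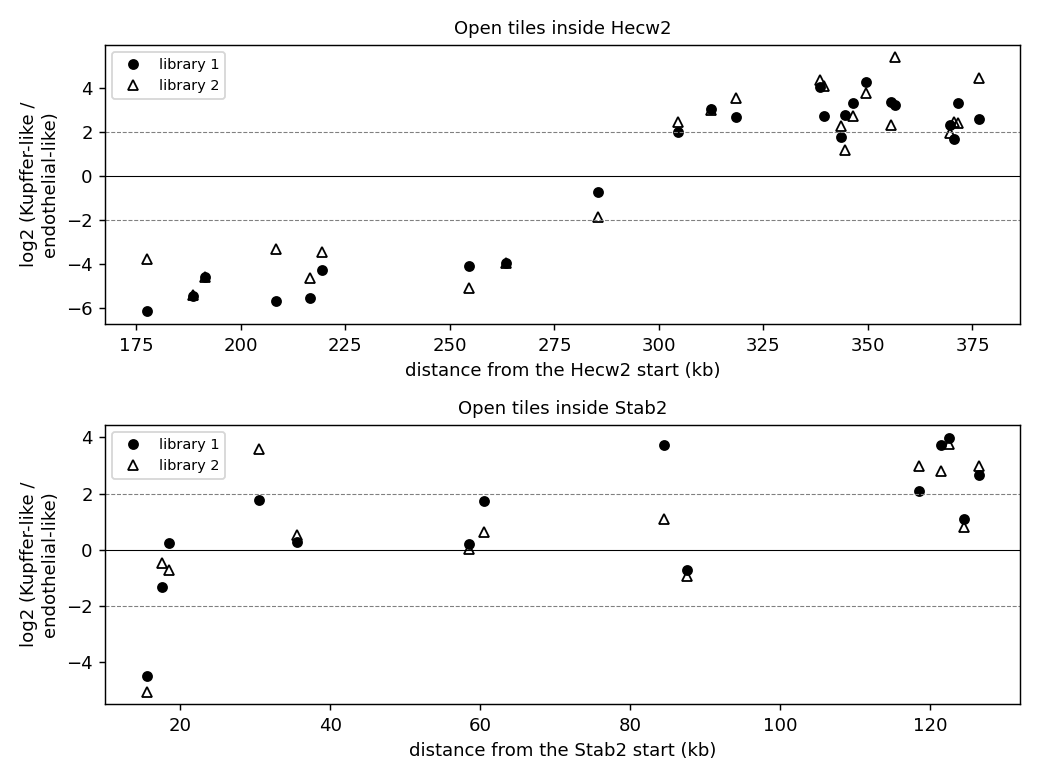
Log2 ratio of Kupffer-like over endothelial-like cells (y axis) for each open tile of Hecw2 and Stab2 by distance from the gene start (x axis, kb), in library 1 (filled) and library 2 (open); dashed lines mark 4-fold. In Hecw2 the 9 tiles up to 286 kb lie below 0 and the 15 from 305 kb above it; in Stab2 the tiles near 120 kb lie above 0 and the tile at 15.5 kb lies lowest.

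The ends of the host gene were within 2-fold between the classes about as often for tiles higher in Kupffer-like cells as for all measured tiles. Fragments within 1 kb of the host's start or end were compared for hosts with at least 20 such fragments of the pair. Of tiles at least 4-fold higher in Kupffer-like cells, 67.4% in library 1 (4199 tiles with a measured host) had such a host end, as had 72.3% of 1429 in library 2, against 69.7% and 71.7% of all measured tiles. For tiles higher in endothelial-like cells the shares were 60.3% and 61.3%. In library 1 629 tiles, and in library 2 177 tiles (12.4%), had a host end also at least 4-fold higher in Kupffer-like cells, against 10.1% and 7.55% of all measured tiles. The host end leaned to Kupffer-like cells by any amount for 53.1% and 63.1%, against 43.9% and 50.3%. Tiles higher in endothelial-like cells had a host end that leaned to endothelial-like cells for 73.9% and 69.5%, against 56.1% and 49.7%. Their host end was at least 4-fold higher in endothelial-like cells for 19.9% and 18.4%, against 7.10% and 6.90% of all measured tiles. Tiles of 1 host share its ends and are not separate cases.

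Of 12 gene lists, those of heme handling, lysosomes and engulfment had the highest shares of tiles higher in Kupffer-like cells. The lists were chosen with earlier results of these data known, and the share over all hosts was 29.4% for tiles at least 4-fold higher in Kupffer-like cells in both libraries and 14.2% for endothelial-like cells. In the heme, iron and red cell clearance list 10 of 13 measured tiles were higher in Kupffer-like cells and 0 in endothelial-like cells, but all 10 lay in Lrp1, a large endocytic receptor that takes up heme bound to hemopexin. Its tile with most fragments (chr10:127604001-127605000) held 327 and 147 fragments of Kupffer-like cells, 58.9 and 57.2 CPM, against 7 and 6 of endothelial-like cells, and stellate or fibroblast-like cells were at 40.4 and 27.5 CPM. Bach1, the heme-regulated repressor, held 2 tiles, of which 1 was measured in both libraries and was not called.

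Engulfment and scavenger receptors had 47 of 82 tiles higher in Kupffer-like cells (57.3%) and 4 higher in endothelial-like cells. Lrp1 held 10 of them, the same 10 as in the heme list. Wdfy3, an autophagy adaptor, held 8, Mertk, a receptor for apoptotic cells, 6, Itgb5, an integrin subunit that binds them, 5, and Cd36, a lipid scavenger receptor, 4. A tile in Itgb5 (chr16:33885001-33886000) held 80 and 20 fragments of Kupffer-like cells and 0 and 0 of endothelial-like cells. Scarb1, the HDL receptor, held the tile of the list with the largest endothelial lean (chr5:125319001-125320000), with 5 and 0 against 33 and 20. Lysosome, autophagy and MiT factor genes had 26 of 44 (59.1%) and 1, among them the same 8 tiles of Wdfy3, 5 of 6 in Tfeb, a master regulator of lysosome genes, and 3 of 3 in its relative Mitf. The Fc receptor, integrin and tyrosine kinase list had 38 of 82 (46.3%) and 7, with 7 of 8 in Fyb, 6 of 6 in the phosphatase gene Ptprj and 4 of 5 in Syk, the kinase downstream of Fc receptors.

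The LXR, PPAR and lipid list had 20 of 53 tiles (37.7%) higher in Kupffer-like cells and 2 higher in endothelial-like cells. Abca1 held 8 of the 20 and none of the other kind. Its tile at chr4:53122001-53123000 had 98 and 44 fragments of Kupffer-like cells and 0 and 0 of endothelial-like cells. Abcg1, the second cholesterol exporter of macrophages, held the 2 endothelial-like tiles, and at chr17:31079001-31080000 the numbers were 12 and 2 against 69 and 42. Rxra, the shared partner of LXR and PPAR, had 3 of 9 higher in Kupffer-like cells, and its tile with most fragments (chr2:27740001-27741000) was at 66.3 and 78.2 CPM in Kupffer-like and 24.7 and 23.1 in endothelial-like cells.

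Among myeloid and Kupffer transcription factors 18 of 48 tiles (37.5%) were higher in Kupffer-like and 2 in endothelial-like cells. The 18 included 4 of 4 in Runx1. One of these tiles holds an annotated start (chr16:92697001-92698000) and was picked after its values were seen. It was at 13.7 and 16.7 CPM in Kupffer-like cells. In stellate or fibroblast-like cells it was at 20.2 and 13.8, and in monocyte or dendritic-like cells at 11.6 and 12.4. Transcription and chromatin co-factors had 15 of 98 and 12, yet the tile with the largest Kupffer-like ratio of that list, in the repressor gene Foxp1 (chr6:99241001-99242000), held 126 and 62 fragments against 0 and 0. NF-kappaB, Toll-like receptor and cytokine genes had 5 of 21 and 4, with 2 in the kinase gene Irak2. TGF-beta, BMP and SMAD genes had 6 of 35 and 10. In Tgfbr2, the type II TGF-beta receptor, 3 of 8 tiles were higher in Kupffer-like cells, and in the co-receptor gene Tgfbr3 3 of 4 were higher in endothelial-like cells.

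The endothelial list had 26 of 75 tiles (34.7%) higher in endothelial-like cells and 13 higher in Kupffer-like cells. All 5 measured tiles of Erg, the ETS factor that maintains endothelial identity, were of the first kind. All 3 measured tiles of Heg1, a receptor of endothelial junctions, were of the second, and that at chr16:33751001-33752000 held 152 and 85 fragments of Kupffer-like and 4 and 2 of endothelial-like cells. The stellate, contractile and matrix list had 16 of 40 higher in endothelial-like cells, 8 of them in the focal adhesion gene Tns1, and 6 higher in Kupffer-like cells. One of these lay in Pdgfrb, the PDGF receptor of stellate cells (chr18:61074001-61075000), with 117 and 62 fragments of Kupffer-like, 2 and 3 of endothelial-like and 3 and 3 of stellate or fibroblast-like cells. Csf1r, the growth factor receptor of macrophages, is its neighbour on that chromosome and held 2 tiles, the fuller with 125 and 21 fragments of Kupffer-like and 4 and 2 of endothelial-like cells.

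Library 2 differed from library 1 in a minority of tiles. Ratios of library 2 over library 1 within a class were taken relative to the median of all open tiles, which was -0.35 (log2) in Kupffer-like and -0.25 in endothelial-like cells, and a tile was called at 2-fold with at least 40 fragments over both libraries. In Kupffer-like cells 402 of 7760 tiles (5.18%, against 4.63% of all open tiles) were higher in library 2, and 987 (12.7%, against 9.98%) were lower. At gene ends 3.75% were higher and 5.54% lower. In endothelial-like cells 89 of 1930 tiles (4.61%, against 3.29%) were higher and 332 (17.2%, against 7.54%) lower, while gene ends were at 1.52% and 2.75%. Tiles inside genes held fewer fragments than gene ends, a median of 85 against 176, and counting error is larger at lower counts. With at least 100 fragments from 60 barcodes, 10.4% of the tiles were lower in Kupffer-like and 13.5% in endothelial-like cells. The part of counting error in the contrast with gene ends was not tested. Open tiles between genes were at 6.08% and 14.0% in Kupffer-like cells and at 9.49% and 13.9% in endothelial-like cells. The makeup of clusters and the share of pile-ups differ between the libraries together with these values, and their part in the difference was not tested, except that masking pile-ups left 398 tiles higher and 990 lower in Kupffer-like cells. Over all filtered cells, whatever their class, 656 of 13316 tiles (4.93%, against 4.05% of all open tiles) were higher and 1031 (7.74%, against 5.48%) were lower.

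**Figure D5:**
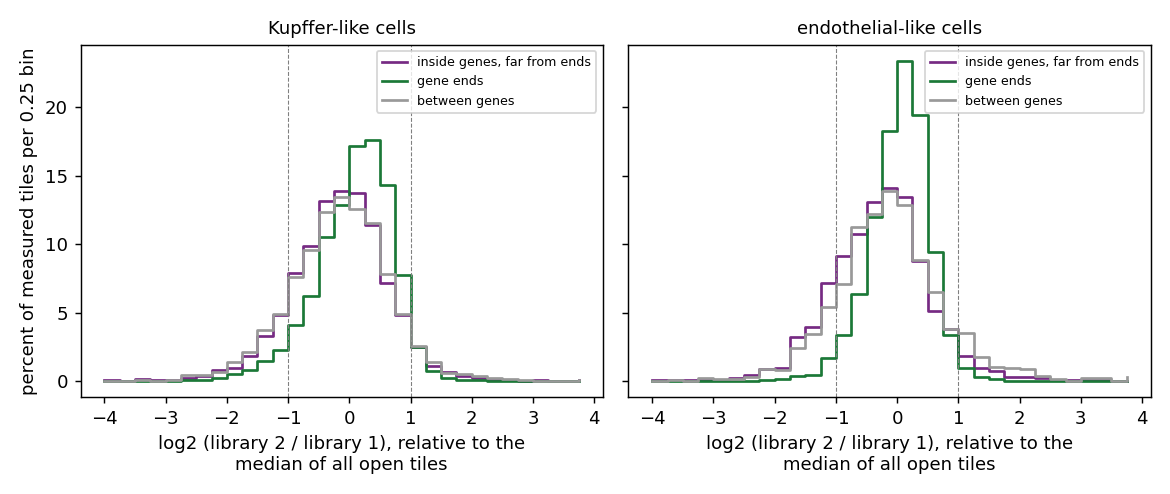
Percent of measured tiles (y axis) by log2 ratio of library 2 over library 1, relative to the median of all open tiles (x axis, bins of 0.25, values beyond 4 drawn at the edge), for Kupffer-like (left) and endothelial-like (right) cells and 3 kinds of tile; dashed lines mark 2-fold. Tiles inside genes spread wider than gene ends, with 12.7% and 17.2% of them lower by at least 2-fold. They also held fewer fragments, a median of 85 against 176, and counting error is larger at lower counts. How much of the spread this makes up was not tested.

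Of the 987 tiles lower in library 2, 21 held an annotated start, as did 11 of the 402 higher ones. Few could be followed in the other class. Of the 987, 70 were measured in endothelial-like cells, where 20 (28.6%) were also lower and 0 were higher. Of 39 measured among the 402 higher tiles, 6 (15.4%) were also higher and 2 lower. Over all 868 tiles measured in both classes, 102 (11.8%) were lower and 36 (4.15%) higher in endothelial-like cells.

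In Pitpnm2, which encodes a phosphatidylinositol transfer protein, Kupffer-like cells had 3 fragments in library 1 and 63 in library 2 at chr5:124226001-124227000, or 0.540 and 24.5 CPM. With pile-ups masked the log2 ratio was 5.66 (95% interval 4.26 to 8.19, counting error only). Stellate or fibroblast-like cells had 19 and 9 fragments there and endothelial-like cells 1 and 1. In Slco2b1, an organic anion transporter (chr7:99680001-99681000), Kupffer-like cells had 4 and 38. Tulp4 had 5 and 44, Tmtc1 5 and 38, Slit1 6 and 36, Septin9 8 and 32, Gpat3, an enzyme of triglyceride synthesis, 13 and 50, and Gng12 10 and 37. Endothelial-like cells had 0 and 9 fragments in Slco2b1, 0 and 8 in Slit1, 1 and 11 in Gpat3 and 0 and 6 in Gng12, under the minimum for a call.

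The lowest tiles held 0 or 1 fragment of Kupffer-like cells in library 2. Slc39a8, a zinc and manganese importer, had 43 fragments of Kupffer-like cells in library 1 and 0 in library 2 (chr3:135851001-135852000). Pard3b had 49 and 0, Peak1 47 and 0, Mrvi1 46 and 0, Ccz1, which acts in the maturation of phagosomes, 42 and 0, and the chromatin organiser Satb1 40 and 0. Rapgef6 had 60 and 1, and Pmfbp1 47 and 1. The Pard3b tile was open in monocyte or dendritic-like cells of both libraries, with 7 and 15 fragments.

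In endothelial-like cells the tile in Ppard, a nuclear receptor for fatty acids (chr17:28260001-28261000), had 5 and 46 fragments, 3.34 and 25.3 CPM, while Kupffer-like cells had 69 and 38. Palmd had 5 and 37 and Spidr 6 and 36. In the other direction Prkag2, a subunit of the energy sensor AMPK, had 44 and 1 (chr5:25067001-25068000), Dpf3 38 and 3, and Myo18a, whose tile holds an annotated start, 57 and 6. Mxi1 and Celf4 leaned opposite ways in the 2 classes: Mxi1 had 5 and 41 fragments in endothelial-like and 34 and 6 in Kupffer-like cells, and Celf4 had 40 and 3 against 113 and 64.

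Library differences of listed genes stand beside 5.18% higher and 12.7% lower over all measured tiles inside genes. In Kupffer-like cells 1 of 20 measured tiles of the heme list was higher in library 2 and 0 were lower, and with pile-ups masked 0 of 19 were called. Engulfment genes had 9 of 132 higher and 12 lower, with 3 of the 9 in Cd36, and lysosome genes 8 of 66 higher and 3 lower. LXR, PPAR and lipid genes had 6 of 62 higher and 3 lower, myeloid transcription factors 1 of 78 higher and 10 lower, and the Fc receptor list 6 of 126 in either direction. NF-kappaB genes had 0 of 24 higher and 3 lower. The endothelial list had 1 of 80 higher and 16 lower, and TGF-beta, BMP and SMAD genes 4 of 29 higher and 2 lower. Co-factors had 9 of 130 higher and 14 lower, and the stellate list 0 of 34 higher and 3 lower.

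Fragment length did not set the tiles apart. Fragments under 150 bp, shorter than the DNA of a nucleosome, made up 72.2% (95% binomial interval 72.1 to 72.3) of fragments in the tiles in library 1 and 71.5% (71.4 to 71.6) in library 2, against 72.0% and 70.9% at gene ends and 72.0% and 71.4% between genes. PCR copies were already collapsed to unique fragments, and intervals cover counting error only.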

How the data were processed

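Single-cell ATAC-seq was measured in 2 samples, 1 Spta wt/wt and 1 Spta sph/sph mouse, deposited as pooled files with 2 barcode suffixes. Per the submitters' processing notes, Cell Ranger ATAC 1.2.0, R 3.6.1, Signac 0.2.4 and build GRCm38.p5 were used; other steps are not given in the sources used here. The deposited fragment table gives counts of read pairs per unique fragment, and each unique fragment was used once. The deposited per-barcode table gives the authors' cell calls and counts of fragments, of fragments in peaks and of blacklisted fragments. Gene models and promoter sequences came from RefSeq tables of GRCm38.p6; no genome sequence was used, and sequence features of the tiles themselves were not analysed here.

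Depth and fragment numbers per library stand in the report. Cells needed 1000 fragments in peaks, 15% in peaks and at most 5% blacklisted. Presence in 5 kb bins (327308 bins without open tiles inside genes, each in at least 10 cells) was weighted by TF-IDF, reduced to 30 components by truncated SVD (scikit-learn 1.9.0, first left out), and clustered on 20 neighbours by Leiden at resolution 0.5 (leidenalg 0.10.2). A cluster took the name of a marker list at a score of 0.25, a lead of 0.2 and 3 markers seen in 10% of cells. Doublets marked by overlapping fragments (65 of 609 and 91 of 562 cells) were kept. Fragments were summed per class, library and tile, with exact Poisson and conditional binomial 95% intervals (SciPy 1.17.1), tested on simulated data. Alternatives for the cell filter, doublets, bins, resolution, counting, scaling, pile-ups and thresholds were run. Samples could not be tested against each other, since each genotype has 1 library. Tiles and genes, and the 12 gene lists, were chosen with earlier results of these data known; 1 list is not reported here. Named tiles are 1 per host: the 5 hosts with most tiles (7 with ties) and the 5 tiles with most fragments, the 10 with the largest lead in each of 3 classes, the 8 highest and 8 lowest library ratios in Kupffer-like and 4 and 4 in endothelial-like cells with pile-ups masked and at least 40 fragments, for each list the tile with most fragments and those with the highest and lowest class ratio, and the tiles of marker genes; tiles named outside this rule are said to be chosen after their values were seen.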

Additional observations from a re-analysis of the deposited data

Results flagged for a closer look

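The tiles in Mxi1 and Celf4 differed between the libraries in opposite directions in the Kupffer-like and endothelial-like cells. Relative to the median of all open tiles, with pile-ups masked, the log2 ratio of library 2 over library 1 in the Mxi1 tile, which holds the annotated start of Gm30541, was -0.93 in Kupffer-like and 2.88 in endothelial-like cells. In the Celf4 tile it was 0.66 in Kupffer-like and -3.56 in endothelial-like cells. With 1 library of each kind the difference between the classes was not tested.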

How the results depend on the processing

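Single tiles were followed through the alternatives only where named for a class lead or a library difference, and none of their values changed sign. Other named tiles, such as those of the gene lists, were not followed. With 3000 fragments in peaks per cell the balance of calls in library 2 turned from Kupffer-like to endothelial-like (54 tiles, 2.79%, against 819, 42.3%). Under the alternative settings 86 summary values stayed near the value reported (counts within 1.5 times, shares within their counting interval) and 41 did not, and 382 values for single tiles moved by less than 1 on the log2 scale and 50 by more. No paired analysis was possible because each genotype has 1 library. In what follows, percentages beside counts are of measured tiles. Placing fragments by both insertion ends gave 22864 tiles. Of these, 8392 and 4285 (39.6% and 33.2%, library 1 and library 2) were higher in Kupffer-like cells. Another 3225 and 2509 (15.2% and 19.5%) were higher in endothelial-like cells. Between libraries, 1258 (8.52%) were higher and 2385 (16.2%) lower in library 2 in Kupffer-like cells, 435 (9.07%) and 943 (19.7%) in endothelial-like cells. Asking for 100 fragments from 60 barcodes gave 5263 tiles, with 2318 (44.2%) higher in Kupffer-like cells in library 1. In endothelial-like cells 458 and 455 (8.73% and 10.4%) were higher. The library differences were 195 (4.11%) and 492 (10.4%) in Kupffer-like and 46 (3.58%) and 173 (13.5%) in endothelial-like cells. With 3000 fragments in peaks per cell, 702 tiles (12.2%) were higher in library 2 in Kupffer-like cells. Leaving out marked doublets gave 557 tiles (12.5%) higher in endothelial-like cells in library 2. Between libraries, 41 (4.28%) were then higher and 180 (18.8%) lower in endothelial-like cells. Clustering on 20 kb bins gave 476 (13.5%), 57 (4.44%) and 195 (15.2%) for the same counts. Beyond 20 kb from gene ends, 220 (16.5%) were lower in library 2 in endothelial-like cells. At 1.5-fold, the library differences were 1130 and 2103 in Kupffer-like and 232 and 641 in endothelial-like cells. Fragments under 120 bp made up 65.2% and 64.8%; the share under 150 bp was 73.4% and 72.2% with 100 fragments from 60 barcodes, and 71.3% in library 2 with pile-ups masked. Scaling to gene ends put the share of host ends that leaned like the tile, in library 1, at 61.0% for Kupffer-like and 67.2% for endothelial-like tiles; asking for a 2-fold lean put it at 24.7% and 19.9% (library 1 and 2) and at 32.0% and 31.4%. The cause of these shifts was not tested, other than fewer tiles or cells entering where a minimum was raised. Classes with few cells, such as the 25 stellate or fibroblast-like cells of library 2, limit what could be called.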
